A study of Mus musculus with 6 samples.

Results

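The transcripts of 10 chemokines were followed in 4T1 cells, a mouse mammary carcinoma cell line. The genes were those listed for chemokines that draw neutrophils, monocytes and T cells, namely Cxcl1, Cxcl2, Cxcl3, Cxcl5, Cxcl16, Cx3cl1, Ccl2, Ccl5, Ccl7 and Ccl20. Each symbol was found at 1 Ensembl identifier, so that all 10 of them were present among the 56748 genes of each library. In the 3 treated samples, wild-type 4T1 cells had taken up Au/MoS2/Bi2S3 particles overnight at 125 µg/mL, had been exposed to near-infrared light for 8 min and were collected at 48 h. The 3 control samples were wild-type 4T1 cells collected at 48 h. The particles are a heterojunction material of gold, molybdenum disulfide and bismuth sulfide meant to heat tumours and form reactive oxygen in them under light. Cells given particles alone or light alone were not analysed here. The model is 1 cell line in culture, and the labels describe RNA pooled over 3 individuals without saying whether the samples of a group were separate cultures, so that a p-value here reflects only how far these particular samples lie apart, and that distance may be technical.

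Chemokines are small secreted or membrane-anchored proteins that bind G protein-coupled receptors and guide the migration of leukocytes along gradients held on heparan sulfate. Families are named for the spacing of the first cysteines of the mature protein, and the genes of a family lie mostly in clusters that arose by tandem duplication. Tumour cells are a known source of CC chemokines that recruit monocytes and of CXC chemokines that recruit neutrophils, and many of these genes are induced through NF-kB downstream of interleukin 1, tumour necrosis factor and Toll-like receptors.

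The cysteine spacing that defines the families is shown by the coding strand around the first pair of mature cysteine codons, read 5′ to 3′ from GENCODE M21 on GRCm38, with the cysteine codons in capitals.
Cxcl1: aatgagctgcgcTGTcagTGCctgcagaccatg
Cxcl5: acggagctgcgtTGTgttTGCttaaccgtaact
Cxcl16: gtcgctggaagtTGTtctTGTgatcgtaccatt
Cx3cl1: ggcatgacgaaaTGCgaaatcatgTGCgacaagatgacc
Ccl2: gccccactcaccTGCTGCtactcattcacc
Ccl5: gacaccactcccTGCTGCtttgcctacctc
Ccl7: aatgcatccacaTGCTGCtatgtcaagaaa
Ccl20: agcaactacgacTGTTGCctctcgtacata
The CXC members have 3 bases between the cysteine codons, Cx3cl1 has 9, and the CC members have 0. The close relatives Cxcl2 and Cxcl3 carry the same spacing as Cxcl1. Over 300 alignment columns, gaps included, the coding sequences of Cxcl2 and Cxcl3 were 89.7% identical, those of Cxcl1 and Cxcl2 75.7%, and those of Cxcl1 and Cxcl3 72.7%. The counting could therefore split reads among these relatives, and their values are uncertain to that extent.

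Values are in FPKM as deposited, a unit named for fragments per kilobase of transcript per 1e6 fragments. The whole reads behind them were worked back from each gene's exon length. The deposited values had been scaled between libraries. A value of 1 FPKM stood for 44.2 to 44.9 reads per kilobase in treated libraries and 23.4 to 31.7 in control libraries. A gene was tested where at least 3 of the 6 libraries reached 1 FPKM, and called at an adjusted p under 0.05 in limma on log2(FPKM + 1), adjusted over all 11118 genes tested. Of the 10 chemokines, 5 passed this filter (Ccl2, Cx3cl1, Cxcl1, Ccl5 and Ccl7) and the other 5 stayed under 1 FPKM in every library. Of the 5 tested, 1 was called higher in treated cells, 0 were called lower and 4 were not called. At an unadjusted p under 0.05 the counts were also 1 higher and 0 lower, where 6899 of all 11118 genes tested passed in either direction. Among all genes tested, 56.1% were called, 27.9% higher and 28.3% lower, so a called chemokine was no more frequent here than a called gene in general. The treated and control values did not overlap for 1 of the 5, against 67.7% of all genes tested. The median log2 fold change of the 5 was 0.30, beside -0.01 over all genes tested. The call counts depended on the scaling of the libraries: with each library rescaled to the same FPKM total, the median of all genes moved to 0.92, genes called higher and lower numbered 7088 and 734 in place of 3099 and 3141, and 4 chemokines were called higher.

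Between replicates, the control samples lay further apart than the treated samples, with a median SD over genes of 0.0712 on the log2 scale in treated cells and 0.268 in control cells. Depth did not separate the groups, with 33.2 to 33.8 M reads at genes (M, 1e6) in treated libraries and 32.6 to 38.1 M in control libraries. The epithelial keratins Krt8, Krt18 and Krt19 were present, at means of 351.4, 285.6 and 125.7 FPKM in treated cells and 479.9, 861.1 and 512.5 FPKM in control cells. Cdh1, Krt7, Krt14, Cldn4 and Cldn7 were under 1 FPKM in all 6 libraries, so 5 of the 9 epithelial markers were close to absent from cells labelled as mammary carcinoma. The 4 tested were all called lower (median log2 fold change -1.62), where 28.3% of all genes tested were. The call of Krt8 held in only 5 of 13 alternatives. Krt8 was instead called higher under rescaling to equal totals (log2 fold change 0.55, limma adjusted p = 0.00958) and quantile scaling (0.76, limma adjusted p = 0.00381). Krt18 was not called under quantile scaling (-0.30, limma adjusted p = 0.14). The calls of Krt19 and Epcam held in every alternative. Epcam, an epithelial adhesion protein that passed the filter only through the control samples, averaged 0.896 FPKM in treated and 4.99 FPKM in control cells (log2 fold change -1.66, limma adjusted p = 0.000295).

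**Figure D1:**
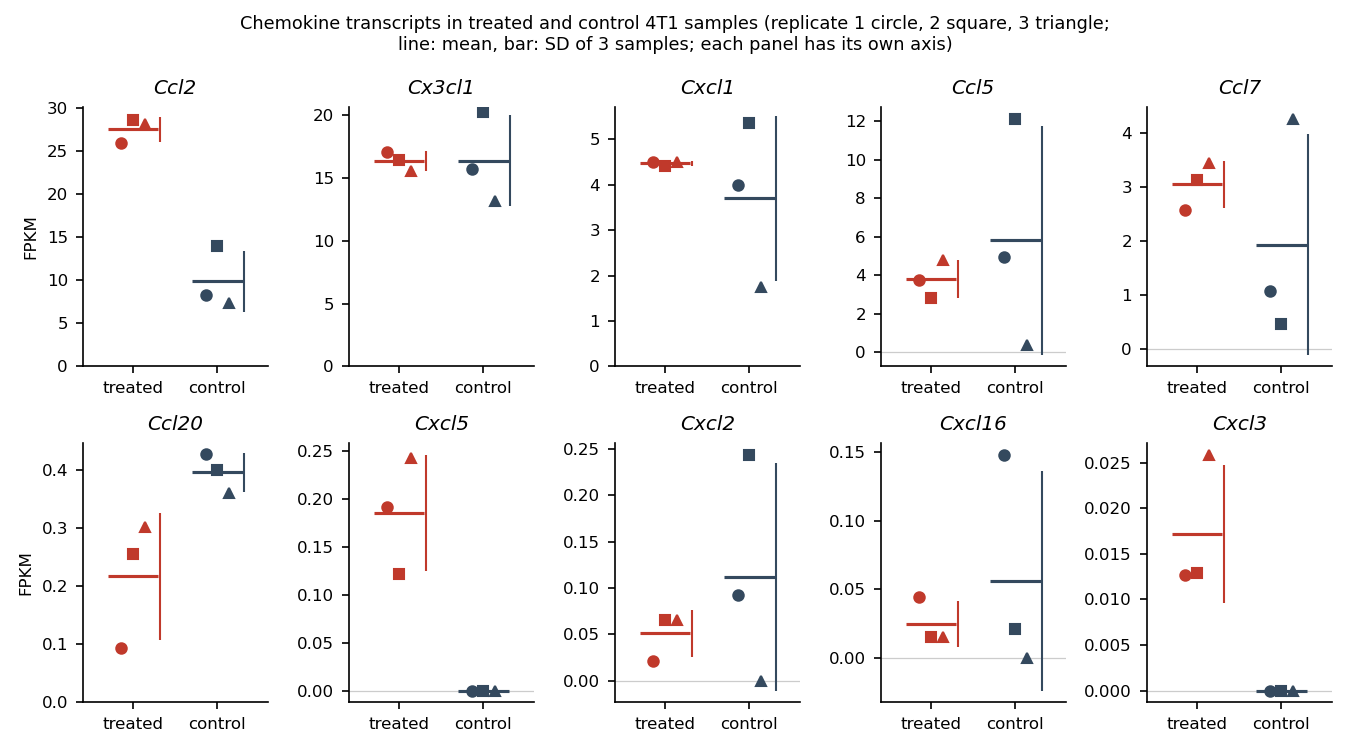
FPKM of the 10 chemokines, each on its own linear axis, with treated left of control, 1 point per library (circle, square and triangle for samples 1, 2 and 3), a line at the mean and a bar for the SD of 3 samples. All 3 treated points lie above the control points for Ccl2 (27.5 against 9.85 FPKM on average), and the control points of Ccl5 and Ccl7 are spread more widely than the treated ones.

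Ccl2, which draws monocytes through the receptor CCR2, was the chemokine that was called. Ccl2 lies on chromosome 11 from 82035571 to 82037453 on the plus strand (GRCm38). It stood at 25.9, 28.5 and 28.1 FPKM in treated samples 1, 2 and 3, against 8.26, 13.9 and 7.35 FPKM in control samples 1, 2 and 3. All 3 treated samples were above all 3 control samples. Behind these values were 1322, 1435 and 1416 reads in treated samples and 294, 503 and 196 reads in control samples. The mean was 27.5 ± 1.45 FPKM in treated cells and 9.85 ± 3.57 FPKM in control cells (SD, n = 3 each), a ratio of 2.79. On the log2(FPKM + 1) scale this came to 1.44 ± 0.23 (SE, 95% interval 0.89 to 2.00, limma adjusted p = 0.00288). The call held in 13 of 13 alternative analyses, in which the log2 fold change lay between 1.28 and 2.48 and the adjusted p between 0.000389 and 0.0164. Within each library, Ccl2 ranked above 92.8, 93.4 and 93.6% of expressed genes in treated samples, against 73.9, 82.4 and 68.1% in control samples. Genes above 0 numbered 21821 to 22088 in treated and 15829 to 18988 in control libraries, so these ranks have unlike bases. Cx3cl1, with means of 16.36 FPKM in treated and 16.4 FPKM in control cells, also ranked higher in treated samples (87.8 to 88.8%) than in control samples (77.2 to 86.5%). In bulk samples such as these, a change in the number of cells that express a gene and a change in its RNA per cell cannot be told apart.

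Ccl7, the closest neighbour of Ccl2 and also a ligand of CCR2, starts 10.1 kb downstream of it on the same strand. It stood at 2.58, 3.14 and 3.44 FPKM in treated samples, against 1.08, 0.472 and 4.26 FPKM in control samples. Control sample 3 was the highest of all 6, so the groups overlapped. The mean was 3.05 ± 0.435 FPKM in treated and 1.94 ± 2.04 FPKM in control cells (SD, n = 3 each), and the log2 fold change of 0.68 ± 0.45 (SE, 95% interval -0.42 to 1.78) was not called (limma adjusted p = 0.244). Control sample 3 decided this value. Without it the log2 fold change of Ccl7 was 1.21 and passed the threshold (limma adjusted p = 0.00218).

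Ccl5 draws T cells and monocytes. It lies on the minus strand of chromosome 11 from 83525778 to 83530518. It stood at 3.76, 2.83 and 4.78 FPKM in treated samples, against 4.93, 12.1 and 0.356 FPKM in control samples. The control samples spanned the treated ones on both sides, with the highest control value 34.1 times the lowest, beside 1.69 times in treated cells. The fitted log2 difference, -0.00 ± 0.79 (SE), was not called (limma adjusted p = 0.999), and its 95% interval of -1.91 to 1.90 leaves room for a large difference in either direction. Its sign turned with single samples, from -0.90 to 0.74 when 1 sample at a time was left out, with the highest of these values without control sample 2.

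Cx3cl1, known as fractalkine, is made as a membrane-anchored protein that holds cells bearing CX3CR1 and is released by the metalloproteases ADAM10 and ADAM17. Cx3cl1 lies on chromosome 8 from 94772009 to 94782427. It stood at 17.1, 16.4 and 15.6 FPKM in treated samples, against 15.7, 20.3 and 13.2 FPKM in control samples. The treated values lay within the control range. The fitted log2 difference was 0.02 ± 0.17 (SE, 95% interval -0.39 to 0.42, limma adjusted p = 0.939), which is the narrowest interval among the 5 tested chemokines. With the libraries rescaled to equal totals it was 1.00 (limma adjusted p = 0.00656), or 0.08 relative to the median of all genes under that scaling.

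Cxcl16, the other membrane-anchored member, whose receptor is CXCR6, was near the limit of detection. It had 6, 2 and 2 reads in treated samples, against 14, 2 and 0 reads in control samples. These reads amount to at most 0.0442 FPKM in treated and 0.148 FPKM in control cells, and no difference was detectable at this depth. Zmynd15 overlaps Cxcl16 on the opposite strand and was itself at no more than 0.0435 FPKM in any library.

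The ligands of CXCR2, Cxcl1, Cxcl2, Cxcl3 and Cxcl5, attract neutrophils, and Cxcl1 carried nearly all of their RNA. Cxcl1 lies on chromosome 5 from 90891241 to 90893115. It stood at 4.50, 4.41 and 4.51 FPKM in treated samples, against 3.99, 5.37 and 1.75 FPKM in control samples. The treated values differed by 1.02 times among themselves and fell inside the control range, which spanned 3.06 times. The log2 fold change of 0.30 ± 0.30 (SE, 95% interval -0.43 to 1.03) was not called (limma adjusted p = 0.423). It was 1.28 with the libraries rescaled to equal totals (limma adjusted p = 0.0261), which is 0.36 above the median of all genes under that scaling. The summed level of the 4 CXCR2 ligands was 4.72, 4.61 and 4.84 FPKM in treated samples, against 4.08, 5.61 and 1.75 FPKM in control samples, and these also overlapped (exact two-sided permutation p = 0.7).

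Cxcl5 was seen in treated libraries alone, at a low level. It had 16, 10 and 20 reads in treated samples, against 0, 0 and 0 reads in control samples. In FPKM it stood at 0.191, 0.121 and 0.243 in treated samples and was listed at 0 in control samples. Because read pairs were often counted as 2 reads, the level that 0 reads allow was set at 6 reads per library, which is 0.114 FPKM on average in the control libraries. Against that level the mean of Cxcl5 was at least 1.62-fold higher in treated cells, a bound on counting error only. Treated sample 2, at 0.121 FPKM, lay below the 0.137 FPKM that 6 reads give in control sample 3. Without a filter on low values, Cxcl5 was called higher (log2 fold change 0.24 ± 0.04, SE, limma adjusted p = 0.0108). It entered that fit only through its reads in treated samples, so its direction was set in advance.

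Cxcl2 and Cxcl3 were at or near the limit of detection. Cxcl2 had 2, 6 and 6 reads in treated samples, against 6, 16 and 0 reads in control samples, and the groups overlapped. Cxcl3 had 2, 2 and 4 reads in treated samples, against 0, 0 and 0 reads in control samples, all at or under 6 reads, so no fold change is given. Against the level that 6 reads of Cxcl2 give, which is 0.0653 FPKM on average in the treated libraries, Cxcl1 was at least 68.5-fold higher in those libraries.

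The stretches just before the starts of Cxcl1, Cxcl2 and Cxcl3 share letters, and they are shown because these relatives lie in 1 cluster and only Cxcl1 passed the filter. The stretches below come from the RefSeq promoter table (GRCm38.p6, plus strand) and end before the GENCODE start of each gene. Capitals mark GGAATTTCC, a form of the NF-kB motif, and ATAAAA, which resembles part of a TATA box.
Cxcl1, chr5:90891145-90891240: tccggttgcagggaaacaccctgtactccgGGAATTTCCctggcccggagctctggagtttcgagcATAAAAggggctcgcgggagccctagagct
Cxcl2, chr5:90903799-90903870: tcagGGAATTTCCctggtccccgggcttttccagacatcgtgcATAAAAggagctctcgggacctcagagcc
Cxcl3, chr5:90786001-90786100: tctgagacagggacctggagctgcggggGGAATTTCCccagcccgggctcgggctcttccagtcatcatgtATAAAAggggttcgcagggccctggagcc
GGAATTTCC began 70, 96 and 72 bases before the RefSeq start of Cxcl1, Cxcl2 and Cxcl3. Of 32851 promoters in that table, 94 (0.286%) held it on either strand within 250 bases, and 5576 (17.0%) held ATAAAA. Of the other chemokines, the table holds Cx3cl1 and Ccl20, where neither stretch was found in that window. For Cx3cl1 the last 100 bases of the window lie inside the GENCODE gene, so they do not precede its GENCODE start. TGANTCA, an AP-1 motif held by 6.75% of the promoters, was found in none of the 5. The motifs were chosen after these sequences had been read, and a match is a description of letters only.

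Ccl20, the ligand of CCR6, which draws immature dendritic cells and some T cells, was low in both groups. It stood at 0.0940, 0.255 and 0.302 FPKM in treated samples, against 0.427, 0.40 and 0.360 FPKM in control samples. All treated values were below the control values, on 6, 16 and 19 reads in treated and 19, 18 and 12 reads in control samples. It did not pass the filter, and without a filter its difference of -0.20 ± 0.08 (SE) was not called (limma adjusted p = 0.145). With the libraries rescaled to equal totals the log2 difference of Ccl20 was 0.03, so its sign depended on the scaling.

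**Figure D2:**
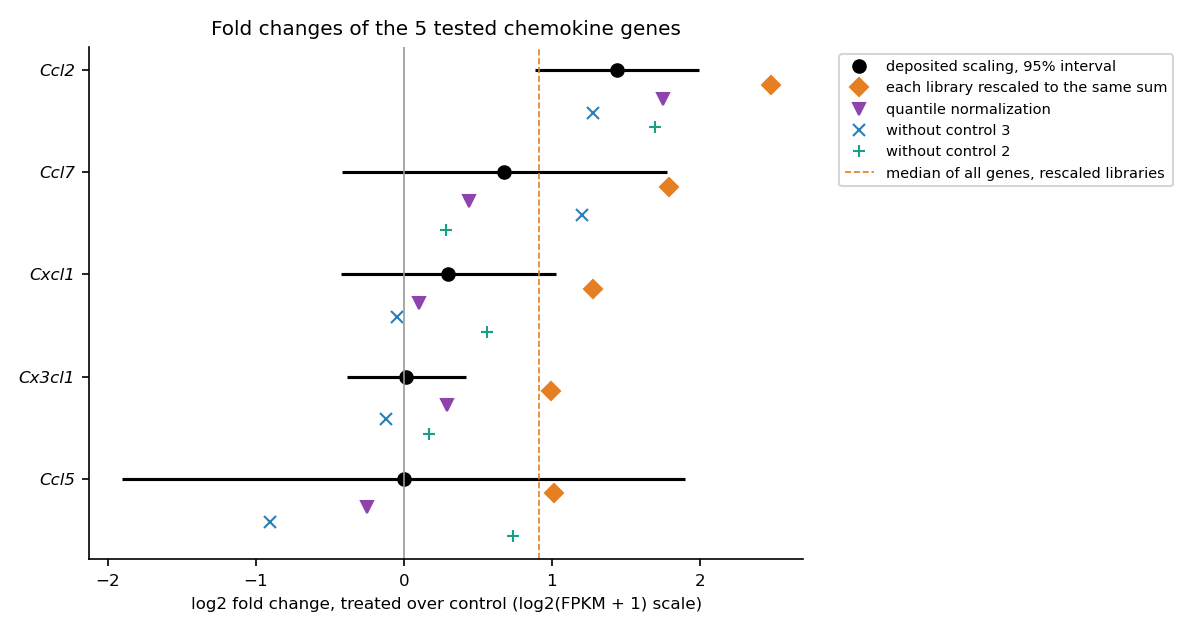
Log2 fold change, treated over control, of the 5 tested chemokines, with a black point and 95% interval for the deposited scaling, and other symbols for libraries rescaled to equal totals, quantile scaling and analyses without control sample 3 or 2. The dashed line marks the median of all genes after rescaling, 0.92; only the interval of Ccl2, 0.89 to 2.00, lies above 0, and the values of Ccl5 without control sample 3 and without control sample 2 lie on either side of 0.

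Within a library, ratios between chemokines do not depend on how libraries were scaled, and they place Ccl2 and Cx3cl1 in opposite order in the groups. Ccl2 was the most abundant of the 10 in all 3 treated samples, and Cx3cl1 was so in all 3 control samples. The ratio of Ccl2 to Cx3cl1 was 1.51, 1.74 and 1.81 in treated samples, against 0.525, 0.687 and 0.558 in control samples. The mean ratio was 1.69 ± 0.154 in treated and 0.590 ± 0.0857 in control cells (SD, n = 3 each, exact two-sided permutation p = 0.1, the smallest that 3 samples against 3 can give). The ratio of Ccl2 to Cxcl1 was 5.75, 6.48 and 6.24 in treated samples, against 2.07, 2.60 and 4.19 in control samples, also without overlap. By contrast, the ratios of Ccl2 to Ccl7 and of Ccl2 to Ccl5 overlapped between the groups (exact two-sided permutation p = 1.0 for each). These belong to 11 such measures, none of which can pass a threshold of 0.05 in this design.

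The 10 chemokines together summed to 54.2, 55.8 and 57.1 FPKM in treated samples, against 34.7, 52.9 and 27.3 FPKM in control samples. Ccl2 made up 47.7, 51.1 and 49.3% of that sum in treated samples, against 23.8, 26.4 and 27% in control samples. Cx3cl1 made up 31.6, 29.5 and 27.3% in treated samples, against 45.4, 38.4 and 48.4% in control samples. The groups overlapped in neither share.

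**Figure D3:**
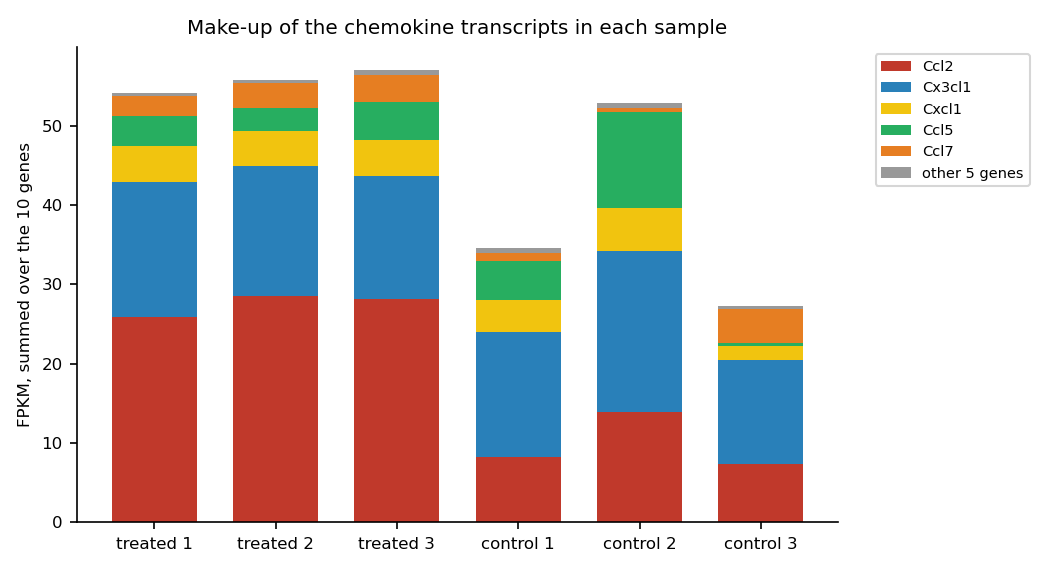
FPKM of the 10 chemokines stacked for each library, the 3 treated libraries left of the 3 control libraries, with the 5 genes under 1 FPKM merged. The stack of Ccl2 makes up 47.7 to 51.1% of the height in treated libraries and 23.8 to 27% in control libraries.

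Among the control samples the chemokines did not move together. Ccl2, Cx3cl1, Cxcl1 and Ccl5 were highest in control sample 2 and lowest in control sample 3, while Ccl7 was highest in sample 3 and lowest in sample 2. Other genes followed either order. Cd68, a macrophage marker that other cells also express, stood at 131.8, 444.1 and 77.0 FPKM in control samples 1, 2 and 3. Col1a1, a fibroblast marker, stood at 242.3, 112.3 and 754.1 FPKM in the same samples. The part of either in the chemokine values was not tested.

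Of the markers of leukocytes, the other usual source of chemokines, all but Cd68 and Ly6g were under 1 FPKM in every library. Ptprc, which marks all leukocytes, was at 0 in 4 of the 6 libraries and had 4 reads in treated sample 1 and 2 reads in treated sample 3. At 0 in all 6 libraries were the macrophage genes Adgre1, Itgam, C1qa and C1qb and the neutrophil genes S100a9, Csf3r and Retnlg. Others were detected at a low level. Cd53 had 30, 55 and 57 reads in treated samples, against 42, 45 and 8 reads in control samples. Csf1r had 61, 78 and 50 reads in treated samples, against 4, 15 and 0 reads in control samples. The 5 pan-leukocyte markers summed to between 0.542 and 1.10 FPKM in treated libraries and between 0.779 and 1.29 FPKM in control libraries. The 8 monocyte and macrophage markers summed to between 241.9 and 259.9 FPKM in treated and between 77.0 and 444.2 FPKM in control libraries, nearly all of it Cd68. The 6 neutrophil markers summed to between 2.03 and 2.58 FPKM in treated and between 2.04 and 6.16 FPKM in control libraries, nearly all of it Ly6g. Ly6g stood at 1.961, 2.306 and 2.495 FPKM in treated samples, against 3.698, 1.975 and 6.161 FPKM in control samples. It was not called (log2 fold change -0.52, limma adjusted p = 0.2). The 7 T cell and NK cell markers reached at most 0.0237 FPKM in treated and 0.0391 FPKM in control libraries. The 6 fibroblast markers summed to between 51.9 and 55.1 FPKM in treated and between 204.3 and 1168 FPKM in control libraries, nearly all of it from the collagen genes Col1a1 and Col3a1. Both were called lower, Col1a1 with a log2 fold change of -3.14 (limma adjusted p = 0.00754) and Col3a1 with -3.05 (limma adjusted p = 0.00364). Pdgfra, the other fibroblast marker tested, was not called (log2 fold change 0.04, limma adjusted p = 0.747), and Dcn and Lum were at no more than 0.0697 FPKM in any library. The 5 endothelial markers summed to between 1.18 and 1.75 FPKM in treated and between 0.744 and 1.16 FPKM in control libraries.

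Most of the chemokines lie in clusters on chromosomes 5 and 11, of which only some genes had detected RNA in these cells. Cx3cl1, Cxcl16 and Ccl20 lie outside these clusters. The CXC genes on chromosome 5 span 146.6 kb, from Cxcl5 to Cxcl2, with Ppbp, Pf4, Cxcl3, Cxcl15 and Cxcl1 between them. In this order the cluster held Cxcl5 at 0.185 FPKM in treated and 0 in control cells, Ppbp at 0.263 FPKM in treated and 0 in control cells, and Pf4 at 1.16 FPKM in treated and 5.59 FPKM in control cells. Pf4, a platelet chemokine, stood at 1.05, 1.29 and 1.16 FPKM in treated samples, against 2.48, 2.76 and 11.5 FPKM in control samples, without overlap, but was not called (log2 fold change -1.34 ± 0.49, SE, limma adjusted p = 0.0562). It was called lower in 6 of 12 alternatives, among them quantile scaling (limma adjusted p = 0.0216), the replicate block and leaving out control sample 2 or control sample 3. Cxcl15 was at 0 in every library. On chromosome 11, Ccl2, Ccl7, Ccl11, Ccl12, Ccl8, Ccl1 and Ccl5 span 1495 kb. Ccl11 and Ccl12, between Ccl7 and Ccl8, were at 0 in every library. Ccl8, another monocyte-attracting chemokine, averaged 3.26 FPKM in treated and 2.74 FPKM in control cells, and was not called (log2 fold change 0.19, limma adjusted p = 0.5). With the deposited scaling, Ccl2 was the called gene of the 3 neighbours Ccl2, Ccl7 and Ccl8, and whether it differed from them in response was not tested. With libraries rescaled to equal totals, Ccl7 (1.79, limma adjusted p = 0.0203) and Ccl8 (1.12, limma adjusted p = 0.00492) were also called higher. The median of all genes under that scaling was 0.92.

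**Figure D4:**
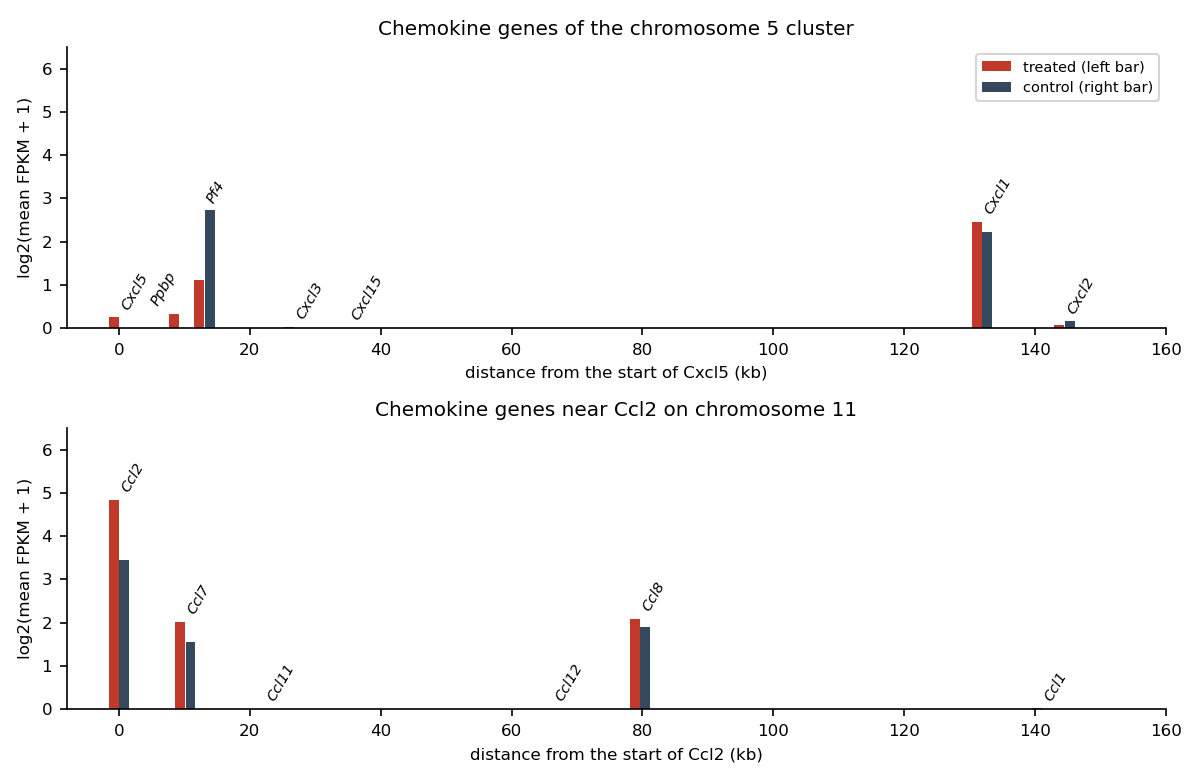
Mean FPKM as log2(mean FPKM + 1) of the chemokine genes of the chromosome 5 cluster (top) and of those nearest Ccl2 on chromosome 11 (bottom), against the distance in kb from the start of the first gene, with the treated bar left of the control bar. Ccl2, at 27.5 FPKM in treated and 9.85 FPKM in control cells, is the highest, and genes such as Ccl11 and Cxcl15 have no bar because they were at 0.

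Of 26 other chemokines, 22 were under 1 FPKM in all libraries and 13 were at 0 in all. Of the 4 tested, 1 was called lower and 0 higher (limma, median log2 fold change -0.77), beside 28.3% and 27.9% of all genes tested. At an unadjusted p under 0.05 the counts were 2 and 0, where 6899 of all 11118 genes tested passed in either direction. The called gene was Ccl27a, a skin chemokine, at 1.18 ± 0.086 FPKM in treated and 4.81 ± 2.19 FPKM in control cells (SD, n = 3 each, log2 fold change -1.35, limma adjusted p = 0.0056). It overlaps Il11ra1 on the opposite strand, whose FPKM was also below the control values in all 3 treated samples, and without strand in the counting the reads of these genes cannot be told apart. Cxcl10, an interferon-induced attractant of T cells, was not called (log2 fold change -0.20, limma adjusted p = 0.211). It was called lower with quantile scaling (-0.63, limma adjusted p = 0.00336) and without control sample 3, and its sign turned with rescaling to equal totals (0.43, limma adjusted p = 0.113). The count of other chemokines called lower was 3 with quantile scaling and without control sample 3, and 2 with a pseudocount of 0.1, sample weights, the replicate block and without control sample 2. In these settings 2669 to 3778 of all 11118 genes tested were called lower. None of the 23 chemokine receptors passed the filter, and 22 were under 1 FPKM in every library, so the receptors of the 10 chemokines had little RNA in these cells. Cx3cr1, the receptor of Cx3cl1, reached 1 FPKM in control sample 3, but its gene model spans Csrnp1 on the same strand, and its value is uncertain.

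The genes known to act on these chemokines moved in both directions, and their counts stand beside the 27.9% of all tested genes called higher and the 28.3% called lower. Mmp12 among the proteases and Nfkbie and Birc3 among the NF-kB genes were called higher but, being under 1 FPKM in all control samples, passed the filter only through the treated samples. Of 11 tested proteases that shed or trim chemokines, 2 were called higher and 7 lower, with a median log2 fold change of -0.78. Adam10, a sheddase of Cx3cl1 and Cxcl16, stood at 38.0, 39.4 and 40.7 FPKM in treated samples, against 12.7, 15.6 and 8.36 FPKM in control samples (log2 difference 1.65 ± 0.22, SE; limma adjusted p = 0.00145), and its call held in 13 of 13 alternatives. Adam17, the other sheddase, was not called (log2 fold change -0.13, limma adjusted p = 0.471). Mmp9, a gelatinase that trims CXC chemokines, averaged 12.8 ± 0.502 FPKM in treated and 99.2 ± 5.11 FPKM in control cells (SD, n = 3 each, log2 fold change -2.86, limma adjusted p = 0.000136).

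Of 19 tested receptors and adaptors upstream of chemokine induction, 12 were called higher and 0 lower, with a median log2 fold change of 0.81. At an unadjusted p under 0.05 the counts were also 12 and 0, beside 6899 of all 11118 genes tested in either direction. Under rescaling to equal totals 18 of them were called higher, beside 7088 of all 11118 genes tested. The 12 were Il1r1, Il6st, Il6ra, Il17ra, Tnfrsf1b, Tlr2, Tlr4, Ifngr1, Myd88, Irak2, Irak4 and Ripk1. Of these, 5 (Il6ra, Tlr2, Tlr4, Irak4 and Ripk1) were under 1 FPKM in all control samples and passed the filter only through the treated samples, so their direction was set by the filter, and with a minimum of 5 FPKM 6 genes of the list were called higher. Tnfrsf1b, a receptor of tumour necrosis factor, stood at 19.4, 19.7 and 19.8 FPKM in treated samples, against 5.30, 6.34 and 4.99 FPKM in control samples (log2 difference 1.66 ± 0.11, SE; limma adjusted p = 0.000263). Of 21 tested NF-kB genes, 9 were called higher and 5 lower, with a median of 0.27. Traf6, which carries signals from interleukin 1 and Toll-like receptors, stood at 6.18, 6.05 and 5.87 FPKM in treated samples, against 1.13, 1.10 and 1.44 FPKM in control samples (log2 difference 1.67 ± 0.10, SE; limma adjusted p = 0.000223). Nfkbia, the inhibitor that NF-kB itself induces, stood at 44.3, 44.5 and 45.2 FPKM in treated samples, against 93.8, 87.2 and 90.7 FPKM in control samples (log2 difference -1.0 ± 0.10, SE; limma adjusted p = 0.000643). That call was lost under rescaling to equal totals (log2 fold change -0.02, limma adjusted p = 0.896) and quantile scaling (-0.19, limma adjusted p = 0.177).

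The remaining lists had calls in both directions. Of 6 tested inducing cytokines, 2 were called higher, among them Csf1, and 2 lower, among them Csf2. Of 13 AP-1 and C/EBP factors, 4 were called higher, and 5 lower, with Fos at 5.46 FPKM in treated and 22.3 FPKM in control cells. The 4 became 2 with sample weights, with the replicate block, with a minimum of 5 FPKM, and without treated sample 2, treated sample 3 or control sample 1. Cebpa, 1 of the 4, averaged 1.51 FPKM in treated and 0.00808 FPKM in control cells and passed the filter only through the treated samples. Of 11 factors listed for the control of mRNA decay, which acts on chemokine transcripts, 4 were called higher and 3 lower. Zc3h12a, the endonuclease regnase-1, averaged 5.96 FPKM in treated and 2.02 FPKM in control cells, and Zfp36, which encodes tristetraprolin, 28.1 FPKM in treated and 69.5 FPKM in control cells. Of 13 tested heparan sulfate genes, 5 were called higher, among them the sulfotransferase Ndst2, and 5 lower, among them the proteoglycan Sdc1. These splits moved with the scaling: under rescaling to equal totals, the calls were 17 higher and 0 lower for NF-kB genes, 4 and 2 for proteases, 4 and 1 for cytokines, 7 and 2 for AP-1 and C/EBP factors, 7 and 0 for decay factors, and 9 and 0 for heparan sulfate genes. Under that scaling 7088 of all 11118 genes tested were called higher and 734 lower, so a shift towards higher calls was general. Zfp36 and Sdc1 were not called under rescaling to equal totals (limma adjusted p = 0.166 and 0.108).

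**Figure D5:**
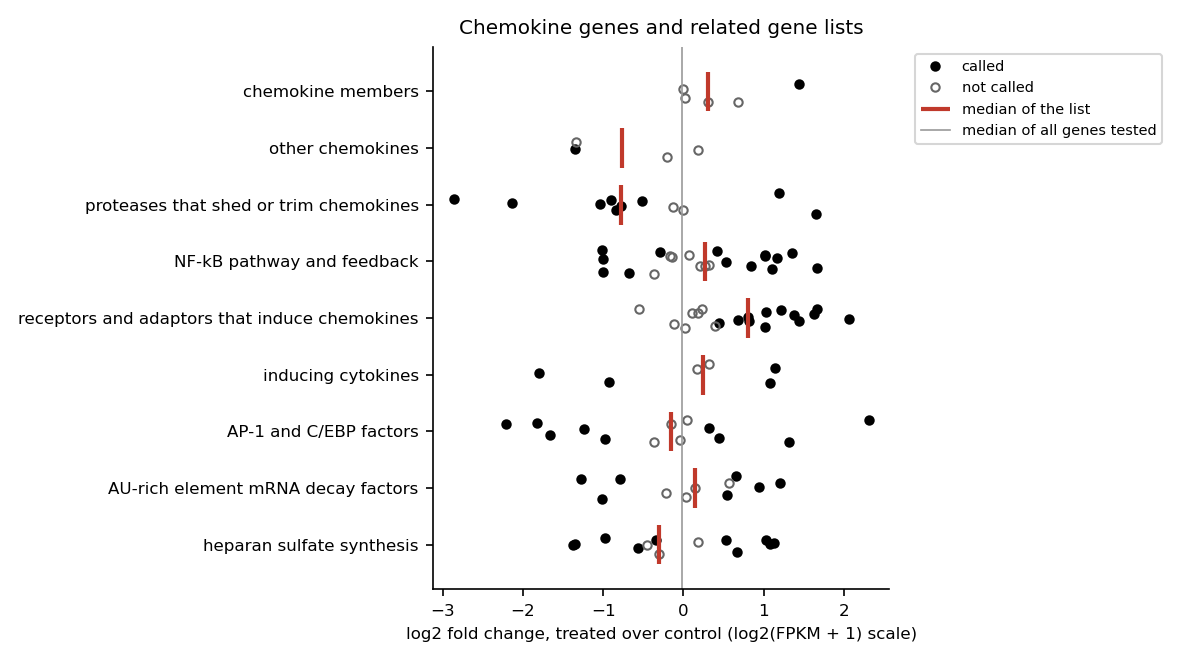
Log2 fold change, treated over control, of each tested gene of the lists around the chemokines, with filled points for called genes, open points for the others, a red line at the median of each list and a grey line at the median of all genes tested. Receptors and adaptors have 12 filled points on the right and 0 on the left, and the tested chemokines 1 on the right and 0 on the left.

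The genes whose profile over the 6 samples was most like that of Ccl2, by Euclidean distance on the centred log2(FPKM + 1) scale, were Ifi211 (0.14), Cat, which encodes catalase (0.154), and AI597479 (0.174). Cat stood at 58.4, 56.5 and 59.6 FPKM in treated samples, against 17.9, 30.2 and 15.3 FPKM in control samples, with control sample 2 the highest of its group as for Ccl2. Those most like Ccl5 were the predicted models Gm9493 (0.379), Gm13394 (0.389) and Gm6472 (0.469), each highest in control sample 2 and lowest in control sample 3.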

How the data were processed

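Groups were taken from the treatment label of each sample. Per the labels' protocols, mRNA was selected from 3 µg of RNA with poly-T beads, copied with random hexamers and sequenced as paired reads of 150 bp. All samples carry 1 batch label. For the aligner, counter, genome build, annotation and use of strand, the sources used here give no name. The authors deposited 1 FPKM value per gene and sample, per the file headers. Symbols were looked up by Ensembl identifier in GENCODE M21 on GRCm38, where 52125 of the 56748 identifiers had one.

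The deposited FPKM had been scaled so that median-of-ratios factors over the 13770 genes above 0 in all libraries were 1.009 in each library, which holds the typical gene level between groups. FPKM totals were 236560, 241950 and 235760 in treated libraries and 451310, 450410 and 532580 in control libraries. Reads were worked back from the FPKM and exon lengths, and all 60 values of the 10 chemokines were whole numbers of reads to within 0.02, 8 of them at 0. Genes with 1 to 20 reads had an even number in 61.1 to 68.6% of cases, so the floor was set at 6 reads, for 3 pairs. This level was set after the data were seen, and it covers counting error only, since reads amplified by PCR and carrying no molecular identifier may copy the same molecule. No pair of samples of a group agreed within sampling noise, with a chi-square per gene of at least 10.4 over genes of 100 reads or more in a pair.

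limma 3.58.1 in R 4.3.3 was fitted to log2(FPKM + 1), a scale that understates changes of low genes, with the prior variance following a trend. The 11118 genes that reached 1 FPKM in 3 libraries or more entered it, with Benjamini-Hochberg adjustment over all of them. Alternatives were a pseudocount of 0.1, no filter, a minimum of 5 FPKM, equal library totals, quantile scaling, sample weights per group, a replicate block and leaving out each sample. The procedure was tested on simulated data, in which both groups had the same spread per gene and few genes were changed. That simulation did not cover the unequal spread of the real groups or the many genes called. Sequences were read with Python 3.11.15 and aligned with Biopython 1.88. Exact permutation tests used scipy 1.17.1.

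The chemokines and the lists around them were chosen with earlier results of these data known. Beyond the 10, genes were named by rule. The rule takes the member of each list with the smallest p called higher and the one called lower, the other chemokines and receptors that passed the filter, and the 3 genes with the profile nearest to Ccl2 and to Ccl5. Adam17, Ppbp, Cx3cr1, Mmp12, Nfkbie, Birc3, the receptors beside Tnfrsf1b, the cluster neighbours and the other marker genes were added after their values were seen.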

Additional observations from a re-analysis of the deposited data

How the results depend on the processing

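Ccl2 was called higher under every alternative run. Chemokines called higher numbered 1 with the deposited scaling, 4 with libraries rescaled to equal totals, and 1 to 2 with 1 sample left out. Without a filter on low values they numbered 2 (Ccl2 and Cxcl5), where Cxcl5 entered only through the treated samples. Rescaling brought Cxcl1 (1.28), Cx3cl1 (1.00) and Ccl7 (1.79) past the threshold and moved Ccl5 to 1.01, where the median of all genes was 0.92. Relative to that median they lay at 0.36, 0.08, 0.88 and 0.10, and Ccl2 at 1.56. Genes called higher numbered 7088 and lower 734 under rescaling, and higher 1385 and lower 2516 with a minimum of 5 FPKM, where 6687 genes were tested. With no filter 4075 of 27756 genes were called higher and 2719 lower. Leaving out 1 sample gave 2279 to 3634 genes higher and 2140 to 3778 lower. The log2 fold change then ranged from 1.28 to 1.70 for Ccl2, 0.29 to 1.21 for Ccl7, -0.04 to 0.56 for Cxcl1, -0.12 to 0.17 for Cx3cl1 and -0.90 to 0.74 for Ccl5. The sign of Cx3cl1 turned without treated sample 1 (-0.01), without control sample 1 (-0.00) and without control sample 3 (-0.12), that of Cxcl1 without control sample 3 (-0.043), and that of Ccl5 with a pseudocount of 0.1 (0.33) and without treated sample 2 (0.15), control sample 1 (0.16) or control sample 2 (0.74). The cause was not tested. With the replicate number as a block, Ccl2 was at 1.44 (limma adjusted p = 0.00795), 1 chemokine was called, and 2618 genes were called higher and 2669 lower. Deviations of same-numbered samples correlated at -0.0538, -0.111 and -0.14, so the numbers were not taken as pairs. Depth limits Cxcl2, Cxcl3, Cxcl5, Cxcl16 and Ccl20, which had 0 to 20 reads in every library, and a fold change between them cannot be read beyond the bounds given.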
